A study of Homo sapiens with 16 samples.

Results

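The genes described here are 151 genes of chromosome 4 that lie beyond 35.74 Mb on the hg18 build and were expressed in clones of HT1080, a human fibrosarcoma line. They were taken from the table of 6 HiSeq RNA-seq libraries as the genes with a start at or beyond that position, a unique symbol and a mean of at least 5 FPKM (fragments scaled for transcript length and library size) over the 6 libraries. Of 672 genes with a unique symbol in this stretch, 506 had a lower mean and 15 were left out by name because they belong to other gene groups, which left 151 of the 7662 genes of all chromosomes that reached 5 FPKM. The members were chosen by measured values, since the stretch was selected on the difference of its genes between the 3 libraries of the 8p integration and the 3 other HiSeq libraries, and this difference is therefore described below without a test.

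Each clone carried a single copy of an inducible XIST cDNA, or for 1 library the empty vector, placed by Flp recombination at an FRT site, in cells that also express the Tet repressor. Doxycycline (DOX), given for 5 days, turned the transgene on. The 8p libraries were 1 without DOX (No DOX) and 2 with DOX (DOX 1 and DOX 2), from an integration within an intron of AGPAT5. The others were 1p with DOX (integration within an intron of MACF1), 1p with the vector lacking XIST and with DOX, and 12q with DOX (integration within an intron of FAM222A). In what follows, the values of the 8p libraries are given in the order No DOX, DOX 1 and DOX 2, and those of the others in the order 1p, 1p vector and 12q. The NextSeq table held 4 further libraries, 1p and 12q, each with No DOX and with DOX. The 8p and 1p integrations were made in one Tet repressor subclone of HT1080 and the 12q integration in another, and all were single-cell clones. By the study's methods the DOX libraries of 8p came from 2 clones and the No DOX library from 1, which the labels do not name. Integration site and clone cannot be told apart, and where nothing marks the libraries of a group as separate cultures, p-values measure only the spread between these libraries.

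In a diploid cell most genes are transcribed from both copies, and the RNA level of many genes follows the number of copies, so that loss of a chromosome segment can lower the RNA of many neighbouring genes together. Some genes depart from this because feedback, limiting regulators or the activity of the promoter set their level. Tumour lines such as HT1080 carry rearranged chromosomes, and clones derived from one line can differ in them. XIST, the RNA that silences one X chromosome in female cells, acts on the chromosome from which it is transcribed. HT1080 carries a derivative of chromosome 4 with a part of chromosome 1, and whether the 1p integration lies on it is not known here.

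The depth of the libraries is unknown, since FPKM values do not give read counts, and precision rests on the number of libraries alone. Levels were compared as log2(FPKM + 1), a scale that understates changes of genes with low values. Between 10975 and 11240 genes reached 1 FPKM in each HiSeq library. The median gene over all 7662 was 0.24 higher on this log2 scale in the 8p libraries than in the others, so differences below are given relative to that median and called relative differences, unless they are named as unadjusted. The mesenchymal markers VIM, FN1, CD44, LGALS1, S100A6 and TIMP1 were present in all 6 libraries (VIM at 1644 to 2241 FPKM), while EPCAM, CDH1, PTPRC, CD3E, ALB and PECAM1 stayed at or below 0.958 FPKM. XIST, the check of the induction, was at 3.38, 99.0 and 89.7 FPKM in the 8p libraries and at 23.8, 0.0705 and 61.9 FPKM in the others.

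The members fell into 2 stretches. The 28 members with the lowest start positions were somewhat higher in the 8p libraries than the median gene. Of the 123 members farther along the chromosome, 117 were lower, and the median relative difference of the 123 was -0.75 (quartiles -0.93 and -0.52). On the FPKM + 1 scale this is 0.593 times the level of the other libraries, where 0.5 times that level would give a log2 difference of -1. The median relative difference was 0.18 for the first 28 members (quartiles -0.0091 and 0.37) and -0.68 over all 151. Unadjusted, the medians were -0.52, 0.42 and -0.44.

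The boundary was placed where dividing the chromosome 4 genes once, in order of position, left the smallest squared distances from the medians of both sides. It fell between CHIC2 (chr4:54570714-54625572) and TMEM165 (start 55956846), a gap of 1331 kb. All 79 members that were lower in every 8p library than in every other library lay beyond this step, against 4.27% of all genes that met the same criterion. Of the 94 members with a relative difference of -0.5 or lower, none lay before the step, and 7.67% of all genes were in this range. Unadjusted, 68 members and 3.69% of all genes were lower by 0.5 or more. A relative difference of 0.5 or higher was found for 6 members, 4 of them before the step, and for 7.75% of all genes. A relative difference within 0.25 of -1 was found for 57 members beyond the step and for 2.47% of all genes. In the opposite direction, 16 of the 28 members before the step and 3 of the 123 beyond it were higher in every 8p library than in every other one, where 34.8% of all genes were. These shares moved with the scaling and the libraries. With each library shifted to an equal median gene, 104 members and 12.0% of all genes were lower in every 8p library, and 12 members and 15.3% of all genes were higher. The lower members numbered 88 against 9.68% of all genes without the 8p No DOX library, and 89 against 7.43% without the 1p vector library. The rule that gave the stretch used this contrast, so these counts carry no support of their own.

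**Figure D1:**
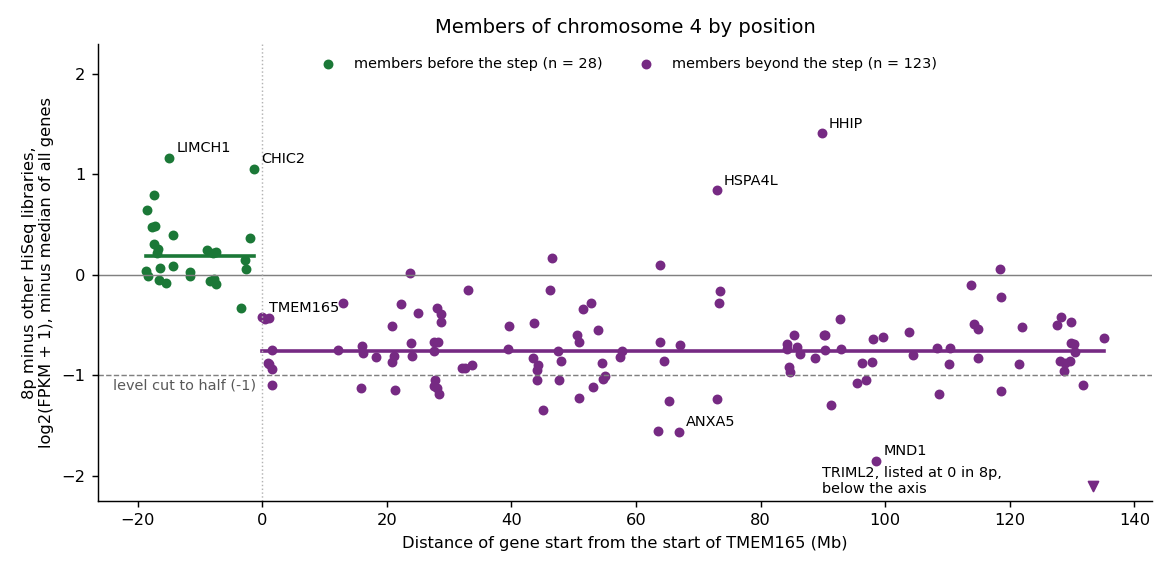
Each point is 1 member, placed by the distance of its start from that of TMEM165 (Mb, horizontal axis) and by its relative difference between the 8p and the other HiSeq libraries (log2(FPKM + 1), vertical axis), with horizontal lines at the medians of 0.18 before and -0.75 beyond the step. The level drops at the step and stays low to the end of the chromosome, with HHIP and HSPA4L far above the other members there.

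The 6 genes of the table inside the gap were too low to place the boundary more closely. PDGFRA, KIT and KDR, which encode receptor tyrosine kinases for platelet-derived growth factor, stem cell factor and vascular endothelial growth factor, reached at most 0.0124, 0.434 and 0.00519 FPKM in any HiSeq library. SRD5A3, needed for the lipid carrier of protein glycosylation, was at 1.17, 0.919 and 0.758 FPKM in the 8p libraries and 1.93, 1.37 and 2.23 FPKM in the others. These values were lower in each 8p library than in each other library, but a single gene at this level does not place the boundary. The gap genes are outside the rule and were looked at after the step had been placed.

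The last 5 members before the step did not share the lower level. SGCB, a sarcoglycan of the muscle cell membrane, was at 7.48, 4.85 and 4.72 FPKM in the 8p libraries and 7.33, 4.45 and 6.65 FPKM in the others, and the groups overlapped. DANCR, a long non-coding RNA, was at 128, 76.1 and 76.9 FPKM in the 8p libraries and 74.4, 53.2 and 83.8 FPKM in the others, with the No DOX library above all others. SCFD2 was at 5.52, 6.20 and 6.21 FPKM in the 8p libraries and 4.03, 4.18 and 6.02 FPKM in the others. FIP1L1, a subunit of the machinery that cleaves and polyadenylates mRNA, was higher in every 8p library, at 37.3, 41.04 and 37.3 FPKM in the 8p libraries and 20.2, 25.1 and 30.996 FPKM in the others. CHIC2, a membrane protein of vesicles, was at 20.3, 21.1 and 24.2 FPKM in the 8p libraries and 5.29, 5.64 and 18.3 FPKM in the others, so that both 1p libraries were low and the 12q library was close to the 8p libraries. Its relative difference of 1.06 thus rested on the 1p libraries.

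The groups still overlapped in TMEM165 and EXOC1, the first genes beyond the step. TMEM165, a Golgi ion transporter, was at 17.3, 13.8 and 13.3 FPKM in the 8p libraries and 14.5, 11.7 and 28.2 FPKM in the others, with the 12q library above and the 1p vector library below the 8p range. Likewise, EXOC1, a subunit of the exocyst that tethers vesicles, was at 7.78, 9.54 and 9.07 FPKM in the 8p libraries and 8.79, 11.4 and 10.7 FPKM in the others, a relative difference of -0.44. The next genes were PPAT and PAICS, neighbours that share a promoter region and encode enzymes of purine synthesis. PPAT was at 8.73, 6.94 and 6.91 FPKM in the 8p libraries and 9.82, 12.96 and 14.3 FPKM in the others and PAICS at 87.01, 72.6 and 66.3 FPKM in the 8p libraries and 107.1, 113 and 138 FPKM in the others, both with no overlap. SRP72, a protein of the signal recognition particle, was at 42.9, 42.997 and 38.3 FPKM in the 8p libraries and 37.9, 45.2 and 61.997 FPKM in the others and overlapped again. Without the 12q library the best step moved by 1 gene, to the start of EXOC1 at 56414572.

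The low level was shared by all 3 8p libraries. After the median of all genes in each library had been subtracted, the median member beyond the step lay 0.38 (No DOX), 0.35 (DOX 1) and 0.38 (DOX 2) below its mean over the 6 libraries on the log2 scale. In the same terms it lay 0.25 above that mean in the 1p library, 0.41 above in the 1p vector library and 0.46 above in the 12q library. The No DOX library, with XIST at 3.38 FPKM, was as low as the libraries with XIST at 99.0 and 89.7 FPKM. Before the step the corresponding medians ran from -0.19 in the 1p library to 0.10 in both DOX libraries of 8p. In bulk RNA, fewer cells with a full level and a lower level in every cell cannot be told apart. The number of copies of chromosome 4 was not measured in these tables, so its part in the values was not tested. The study's methods report a clone that was homozygous in allelic assays on the long arm of this chromosome. That clone is not named there.

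**Figure D2:**
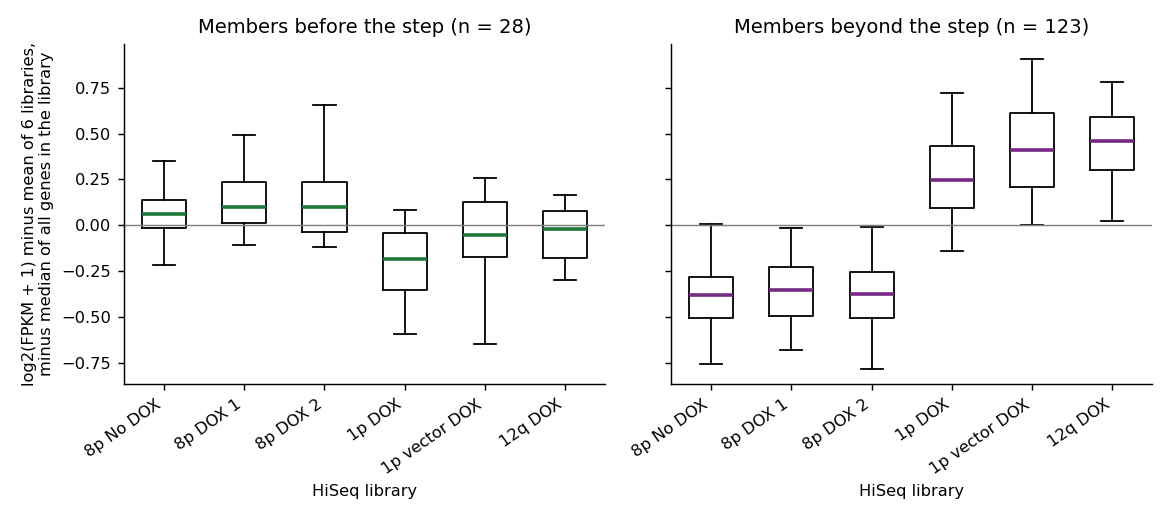
Box plots of the members before (left) and beyond the step (right) in each of the 6 HiSeq libraries, as log2(FPKM + 1) minus the gene's mean over the libraries and minus the median of all genes in the library; lines are medians, boxes quartiles, and whiskers reach the percentiles 5 and 95. Beyond the step the medians of the 3 8p libraries lie between -0.38 and -0.35 and those of the other 3 between 0.25 and 0.46.

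The level stayed near its median along the remaining chromosome. The median relative difference was -0.75 for 21 members from the step to 80 Mb, -0.75 for 20 members from 80 to 100 Mb, -0.84 for 24 members from 100 to 120 Mb and -0.78 for 8 members from 120 to 140 Mb. It was -0.74 for 23 members from 140 to 160 Mb, -0.73 for 14 members from 160 to 180 Mb and -0.77 for 13 members beyond 180 Mb. No stretch of the long arm beyond the step returned to the level of the members before it.

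Other stretches gave the background of the description. The 52 chromosome 4 genes before the start of the rule had a median relative difference of -0.014, and 12 genes beyond the step that had been left out by name had one of -0.84, close to that of the members. The 245 genes of chromosome 3 beyond 95 Mb were lower too, by less, with a median of -0.41. The study's methods also report instability of this chromosome in some clones, which are not named there. Whether this bears on the values was not tested. On chromosome 1, part of which is joined to chromosome 4 in HT1080, the medians were 0.042 for 382 genes on the short arm before the stretch around band 1p21, which was left out, and -0.0012 for 412 genes beyond it. As whole chromosomes, the medians of the other autosomes lay between -0.17 for chromosome 3 and 0.15 for chromosome 18.

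At the thresholds of the rule no jump was seen. Just above 5 FPKM were ELF2, a transcription factor, with 4.09, 4.21 and 3.80 FPKM against 4.99, 4.80 and 8.32 FPKM (8p against others), and RELL1 with 6.38, 5.64 and 5.32 FPKM against 4.08, 5.46 and 4.39 FPKM. Just below were PHF17, a chromatin adaptor, with 4.39, 3.85 and 3.66 FPKM against 6.24, 4.96 and 6.89 FPKM, and UFSP2, a protease for the modifier UFM1, with 3.75, 4.57 and 4.65 FPKM against 5.25, 5.42 and 5.95 FPKM. ELF2, PHF17 and UFSP2 lie beyond the step and had relative differences of -0.68, -0.73 and -0.54. By position, RELL1 and PGM2 were the first members, with relative differences of 0.03 and 0.64, and the last genes before them, RBPJ and C4orf52, had 0.16 and 0.02.

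The lowest member was TRIML2, a gene of the tripartite motif family, listed at 0 in all 3 8p libraries and at 6.13, 60.2 and 13.8 FPKM in the others. No fold is given against values of 0. The SD among the others exceeded their mean, and without TRIML2 the counts of 79 and 68 members became 78 and 67. Next came MND1, a partner in meiotic recombination, at 5.27, 4.24 and 4.31 FPKM in the 8p libraries and 13.3, 18.03 and 17.5 FPKM in the others, a relative difference of -1.85 and a mean of 4.60 ± 0.575 FPKM (SD, n = 3) against 16.3 ± 2.60 FPKM (SD, n = 3). ANXA5, a calcium-dependent binder of phosphatidylserine, was among the most abundant members, at 101, 85.9 and 79.9 FPKM in the 8p libraries and 171, 288 and 227 FPKM in the others, with a mean of 88.96 ± 10.9 FPKM (SD, n = 3) against 229 ± 58.4 FPKM (SD, n = 3). In the same range, SNHG8, a host transcript of a small nucleolar RNA, was at 39.2, 51.1 and 48.9 FPKM in the 8p libraries and 109, 127 and 115 FPKM in the others. For these genes the relative differences were beyond -1, at -1.85, -1.56 and -1.56.

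The other members among the 10 lowest had relative differences from -1.35 to -1.19. H2AFZ, the histone variant H2A.Z, was at 158, 83.5 and 89.02 FPKM in the 8p libraries and 268, 153 and 293 FPKM in the others, and its No DOX value exceeded that of the 1p vector library. LSM6, a ring protein of mRNA decay and splicing, was at 19.3, 13.7 and 11.6 FPKM in the 8p libraries and 29.1, 27.5 and 38.3 FPKM in the others. MAD2L1, of the spindle checkpoint, was at 23.3, 16.2 and 14.7 FPKM in the 8p libraries and 34.8, 33.3 and 43.6 FPKM in the others. All 3 had their highest 8p value in the No DOX library. PLK4, the kinase that starts centriole duplication, was at 5.07, 2.88 and 2.37 FPKM in the 8p libraries and 8.67, 5.85 and 8.67 FPKM in the others. GSTCD was at 3.48, 3.53 and 3.17 FPKM in the 8p libraries and 6.95, 7.98 and 8.35 FPKM in the others, and COQ2, an enzyme of coenzyme Q synthesis, at 5.41, 4.64 and 4.99 FPKM in the 8p libraries and 9.59, 10.7 and 11.7 FPKM in the others. For the last 3 the 8p range lay clear of the others.

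The exceptions beyond the step were 29 members with a relative difference above -0.5. Of these, 27 lay between -0.5 and 0.5 and 2 above 0.5. HHIP, which binds and restrains Hedgehog ligands, was at 9.11, 10.996 and 9.54 FPKM in the 8p libraries and 3.75, 1.39 and 2.68 FPKM in the others, with a mean of 9.88 ± 0.991 FPKM (SD, n = 3) against 2.61 ± 1.18 FPKM (SD, n = 3), the highest relative difference of all members at 1.41. Its level in the others was below the 5 FPKM of the rule, so it became a member only through the 8p libraries, where it was high. HSPA4L, a chaperone of the Hsp110 family, was at 12.4, 11.6 and 10.4 FPKM in the 8p libraries and 3.66, 3.18 and 9.53 FPKM in the others, and here the 12q library was close to the 8p range while both 1p libraries were low. GALNT7, which starts mucin-type glycosylation, was the third that was higher in every 8p library, at 28.3, 24.8 and 24.3 FPKM in the 8p libraries and 23.7, 19.7 and 19.5 FPKM in the others. Their relative differences were 0.84 and 0.05.

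Other exceptions had levels that overlapped between the groups. SEC24D, a coat protein of vesicles leaving the endoplasmic reticulum, was at 9.29, 21.7 and 18.6 FPKM in the 8p libraries and 8.93, 11.6 and 17.4 FPKM in the others. ANXA3, another annexin, was at 38.4, 38.5 and 37.2 FPKM in the 8p libraries and 24.9, 30.9 and 41.4 FPKM in the others, with a relative difference of 0.02. FLJ20021 was at 4.80, 7.66 and 9.63 FPKM in the 8p libraries and 3.28, 6.95 and 5.81 FPKM in the others. Its lower listed coordinate is 305 bases past the higher one of PPP3CA, with strand not considered. PPP3CA, the catalytic subunit of calcineurin, was at 12.3, 13.6 and 14.5 FPKM in the 8p libraries and 12.9, 12.3 and 12.7 FPKM in the others. The neighbours had relative differences of 0.17 and -0.15. For HSP90AB3P, a pseudogene, reads of its expressed parent may have been counted, and its relative difference of -0.15 is uncertain.

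Before the step the highest members were LIMCH1 and CHIC2. LIMCH1, a regulator of non-muscle myosin, was at 16.1, 20.2 and 18.7 FPKM in the 8p libraries and 3.17, 3.62 and 19.2 FPKM in the others, and as for CHIC2 the 12q library was within or near the 8p range. FAM114A1 was at 10.97, 20.7 and 19.1 FPKM in the 8p libraries and 8.46, 5.48 and 8.93 FPKM in the others, and PGM2, which interconverts pentose phosphates, at 59.2, 55.1 and 50.4 FPKM in the 8p libraries and 24.1, 33.04 and 31.6 FPKM in the others. KLHL5 was at 12.99, 10.1 and 9.91 FPKM in the 8p libraries and 5.70, 5.98 and 6.98 FPKM in the others. KLF3, a transcriptional repressor, was at 6.65, 7.93 and 7.59 FPKM in the 8p libraries and 3.05, 4.18 and 5.34 FPKM in the others, and SLC30A9, a zinc transporter, at 21.8, 25.05 and 23.9 FPKM in the 8p libraries and 11.6, 18.5 and 15.2 FPKM in the others. All but LIMCH1 of these were higher in each 8p library than in each other one, with relative differences from 0.40 to 1.06.

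The promoters of members that sit at the median and of the exceptions are shown to set their sequences side by side. They are RefSeq sequences of the GRCh38.p14 build, from 250 bases before a start to 50 bases after it, and where a gene has several starts the one farthest upstream was taken. Near the median beyond the step were SLC39A8, a zinc and manganese transporter (4.89, 4.34 and 4.52 FPKM against 5.66, 6.45 and 9.28 FPKM, 8p against others), and ENOPH1, an enzyme of methionine salvage (14.3, 12.7 and 12.3 FPKM against 17.7, 17.04 and 23.3 FPKM); the highest were HHIP and HSPA4L. Capitals mark the CCAAT motif, the GC box motif GGGCGG and the TATA motif TATAAA on either strand. The positions are chr4:102345433-102345732, minus strand for SLC39A8, chr4:82430340-82430639, plus strand for ENOPH1, chr4:144645906-144646205, plus strand for HHIP and chr4:127781546-127781845, plus strand for HSPA4L.
SLC39A8: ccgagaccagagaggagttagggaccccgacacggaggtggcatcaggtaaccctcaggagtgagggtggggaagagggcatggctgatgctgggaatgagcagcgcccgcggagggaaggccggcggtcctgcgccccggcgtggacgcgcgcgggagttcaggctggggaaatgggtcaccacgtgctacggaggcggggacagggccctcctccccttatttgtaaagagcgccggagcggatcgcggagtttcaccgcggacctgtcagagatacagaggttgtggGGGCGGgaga
ENOPH1: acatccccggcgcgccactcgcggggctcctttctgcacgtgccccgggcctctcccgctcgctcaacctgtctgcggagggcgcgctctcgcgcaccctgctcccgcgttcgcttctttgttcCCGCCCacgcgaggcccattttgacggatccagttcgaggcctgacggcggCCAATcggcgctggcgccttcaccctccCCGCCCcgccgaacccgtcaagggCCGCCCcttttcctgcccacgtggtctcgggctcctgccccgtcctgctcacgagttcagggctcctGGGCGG
HHIP: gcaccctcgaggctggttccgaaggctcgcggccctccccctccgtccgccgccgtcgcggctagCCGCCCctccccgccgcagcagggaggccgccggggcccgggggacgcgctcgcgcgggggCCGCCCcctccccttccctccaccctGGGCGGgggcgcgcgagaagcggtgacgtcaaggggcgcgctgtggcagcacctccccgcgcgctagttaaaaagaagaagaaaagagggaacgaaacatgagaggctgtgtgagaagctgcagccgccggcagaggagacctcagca
HSPA4L: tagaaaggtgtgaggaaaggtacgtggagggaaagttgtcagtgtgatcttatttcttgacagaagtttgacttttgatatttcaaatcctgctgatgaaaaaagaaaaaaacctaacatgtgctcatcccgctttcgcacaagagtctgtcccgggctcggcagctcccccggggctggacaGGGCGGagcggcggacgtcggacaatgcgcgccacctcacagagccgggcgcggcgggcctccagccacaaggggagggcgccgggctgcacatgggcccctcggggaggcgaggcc

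All 4 windows held GGGCGG, 4 times in ENOPH1, 3 times in HHIP and once in SLC39A8 and in HSPA4L. CCAAT was found once, in ENOPH1, and TATAAA in none. The G and C content was 66.3% (SLC39A8), 71.3% (ENOPH1), 72.7% (HHIP) and 59.0% (HSPA4L). Over the 130 members with a promoter in the table, GGGCGG was present in 76.5% of 81 members beyond the step at -0.5 or lower, in 73.9% of 23 other members beyond it, in 53.8% of 26 members before it and in 72.8% of 5595 genes tested. For CCAAT the same shares were 33.3%, 30.4%, 38.5% and 37.5%, and for TATAAA 4.94%, 4.35%, 3.85% and 4.75%. Among all 27305 promoters of the table the shares were 44.5% for GGGCGG, 35.71% for CCAAT and 12.0% for TATAAA. The members that were low beyond the step and the exceptions held each motif in shares within a few percentage points of each other, which was not tested, and their median levels were 10.5 and 13.2 FPKM. The median span from start to end was 40.9 kb in the low members and 58.9 kb in the exceptions.

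Of the 151 members, 129 belong to at least 1 of 11 lists of genes by role, and low members were found in each list. Counts below are of members beyond the step with a relative difference of -0.5 or lower. The share of all genes in this range is the 7.67% given above, and that of all 123 members beyond the step was 76.4%.

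In the list of cell cycle and chromosome segregation, 6 of 8 members beyond the step were this low, with a median of -1.05. HMGB2, a chromatin protein abundant in dividing cells, was at 113, 86.4 and 83.2 FPKM in the 8p libraries and 173, 152 and 211 FPKM in the others. MAD2L1, given above, and HMGB2 did not overlap between the groups. CCNI, an atypical cyclin, was at 57.6, 69.98 and 69.8 FPKM in the 8p libraries and 57.6, 76.4 and 71.4 FPKM in the others, which overlapped throughout. PDS5A, a regulator of cohesin and the member of the list before the step, was at 27.2, 22.5 and 21.7 FPKM in the 8p libraries and 16.6, 19.5 and 21.3 FPKM in the others, higher in every 8p library.

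DNA repair and nucleotide synthesis had 6 of 7 members at -0.5 or lower, all beyond the step, with a median of -0.77. PAICS and PPAT are described above. DCTD, which makes the precursor of thymidylate from dCMP, was at 17.005, 16.99 and 16.6 FPKM in the 8p libraries and 30.5, 19.9 and 30.8 FPKM in the others, and the 8p values were nearly equal. C4orf27 was at 13.3, 9.72 and 10.1 FPKM in the 8p libraries and 11.7, 12.7 and 17.3 FPKM in the others, and its No DOX value exceeded both 1p values.

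In the list of RNA processing and decay 18 of 19 members beyond the step were at -0.5 or lower, with a median of -0.74. HNRNPD, which binds AU-rich elements of unstable mRNAs, was at 187, 149 and 125 FPKM in the 8p libraries and 293, 241 and 302 FPKM in the others. Its neighbour and relative HNRPDL was at 62.9, 44.7 and 40.8 FPKM in the 8p libraries and 78.02, 55.2 and 66.4 FPKM in the others and overlapped between the groups. GAR1, a protein of the H/ACA ribonucleoproteins that guide pseudouridylation, was at 28.5, 20.8 and 21.3 FPKM in the 8p libraries and 47.1, 30.2 and 46.7 FPKM in the others. YTHDC1, a nuclear reader of methylated adenosine, was the exception, at 8.37, 7.34 and 7.23 FPKM in the 8p libraries and 8.32, 6.75 and 8.72 FPKM in the others.

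In chromatin and transcription 14 of 15 members beyond the step were at -0.5 or lower, with a median of -0.83. POLR2B, the second largest subunit of RNA polymerase II, was at 21.6, 17.9 and 16.1 FPKM in the 8p libraries and 27.9, 26.9 and 37.9 FPKM in the others. ZNF330, a zinc finger protein of the nucleolus, was at 12.1, 16.9 and 14.9 FPKM in the 8p libraries and 14.7, 26.4 and 26.5 FPKM in the others, with the 1p library inside the 8p range. SAP30, of the SIN3 histone deacetylase complex, was the exception, at 18.3, 13.4 and 14.4 FPKM in the 8p libraries and 15.6, 12.5 and 17.4 FPKM in the others.

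Of translation and protein synthesis, 6 of 9 members beyond the step were at -0.5 or lower, with a median of -0.74. NAA15, the anchor of an N-terminal acetyltransferase at the ribosome, was at 24.01, 20.1 and 16.9 FPKM in the 8p libraries and 30.2, 32.3 and 36.4 FPKM in the others. METAP1, which removes the first methionine, was at 18.3, 18.9 and 17.03 FPKM in the 8p libraries and 25.6, 33.98 and 31.6 FPKM in the others. ABCE1, a ribosome recycling factor, was at 24.7, 21.9 and 21.2 FPKM in the 8p libraries and 27.2, 24.1 and 37.97 FPKM in the others, where the No DOX value and that of the 1p vector library were close. SRP72 overlapped, as described.

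Ubiquitin genes beyond the step were at -0.5 or lower in 6 of 7 cases, with a median of -0.73. UBE2D3, a ubiquitin-conjugating enzyme, was at 58.1, 49.01 and 49.5 FPKM in the 8p libraries and 74.3, 71.3 and 99.9 FPKM in the others. COPS4, of the COP9 signalosome, was at 12.4, 12.03 and 12.2 FPKM in the 8p libraries and 16.03, 13.4 and 22.2 FPKM in the others. UBE2K and COMMD8, both before the step, were at 27.7, 22.5 and 20.2 FPKM in the 8p libraries and 21.2, 16.1 and 24.8 FPKM in the others and at 12.2, 10.3 and 12.02 FPKM in the 8p libraries and 7.83, 6.05 and 10.4 FPKM in the others, and both overlapped.

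Vesicle transport had 11 of 17 members beyond the step at -0.5 or lower and a median of -0.59. SCOC was at 20.5, 20.6 and 19.1 FPKM in the 8p libraries and 20.8, 25.7 and 32.6 FPKM in the others, without overlap. OSTC, of the oligosaccharyltransferase, was at 28.4, 33.1 and 33.5 FPKM in the 8p libraries and 34.8, 28.2 and 62.01 FPKM in the others, and USO1, which tethers vesicles to the Golgi, at 13.7, 18.6 and 17.8 FPKM in the 8p libraries and 14.97, 24.3 and 22.9 FPKM in the others. SEC31A, a coat protein of the same vesicles as SEC24D, was at 22.7, 29.3 and 27.01 FPKM in the 8p libraries and 27.6, 23.4 and 33.8 FPKM in the others. The last 3 overlapped between the groups, and in each of them the No DOX library had the lowest 8p value.

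Of mitochondria and metabolism, 10 of 12 members beyond the step were at -0.5 or lower, with a median of -0.91, and 5 of 6 members before the step were higher in every 8p library, as were 34.8% of all genes. PIGY, of glycolipid anchor synthesis, was at 23.6, 18.2 and 18.8 FPKM in the 8p libraries and 29.8, 28.8 and 39.4 FPKM in the others. OCIAD1 and OCIAD2, neighbours before the step, were at 40.8, 38.2 and 37.5 FPKM in the 8p libraries and 29.1, 24.9 and 29.9 FPKM in the others and at 94.2, 105 and 101 FPKM in the 8p libraries and 110.1, 66.8 and 101 FPKM in the others. OCIAD1 was higher in each 8p library, while OCIAD2 overlapped and was lowest in the 1p vector library.

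In apoptosis and calcium binding 4 of 7 members were at -0.5 or lower, with a median of -0.57. PPID, a cyclophilin, was at 17.3, 18.9 and 16.3 FPKM in the 8p libraries and 18.6, 18.4 and 32.3 FPKM in the others, with both 1p libraries inside the 8p range. Among growth factors, receptors and signalling, 4 of 5 members beyond the step were this low, with a median of -0.74. VEGFC, a growth factor for lymphatic vessels, was at 10.1, 11.2 and 10.04 FPKM in the 8p libraries and 20.1, 6.41 and 16.2 FPKM in the others, and the 1p vector library lay below the 8p range. RAP1GDS1, a chaperone of small GTPases, was at 5.81, 6.24 and 5.69 FPKM in the 8p libraries and 9.20, 8.63 and 10.4 FPKM in the others, without overlap, and APBB2, before the step, at 9.34, 14.9 and 13.6 FPKM in the 8p libraries and 10.1, 10.6 and 12.5 FPKM in the others.

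Of matrix, adhesion and cytoskeleton, 4 of 8 members beyond the step were at -0.5 or lower, with a median of -0.50. IGFBP7, a secreted protein that binds insulin-like growth factors, was at 23.5, 27.1 and 27.3 FPKM in the 8p libraries and 61.7, 33.1 and 53.5 FPKM in the others. TSPAN5, a tetraspanin, was at 11.7, 12.1 and 12.3 FPKM in the 8p libraries and 13.2, 13.5 and 16.998 FPKM in the others, without overlap, although its relative difference was only -0.48. PALLD, which organizes actin bundles, was at 15.8, 13.8 and 13.3 FPKM in the 8p libraries and 13.3, 9.73 and 16.3 FPKM in the others and overlapped. IGFBP7 and POLR2B overlap by a short stretch at their ends in the table.

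**Figure D3:**
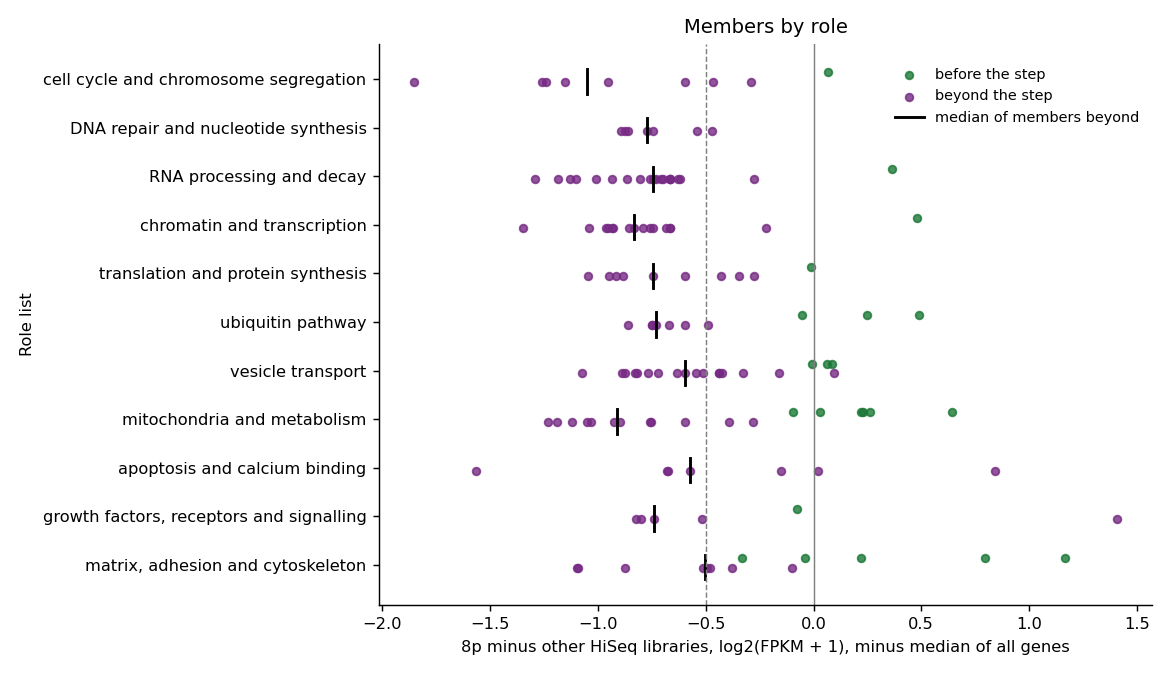
Each point is 1 member, placed by its relative difference between the 8p and the other HiSeq libraries (log2(FPKM + 1), horizontal axis) in the row of its role list, with black bars at the medians of the members beyond the step and a dashed line at -0.5; TRIML2 belongs to no list. Medians lie between -1.05 (cell cycle and chromosome segregation) and -0.50 (matrix, adhesion and cytoskeleton), and the members before the step lie to the right.

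**Figure D4:**
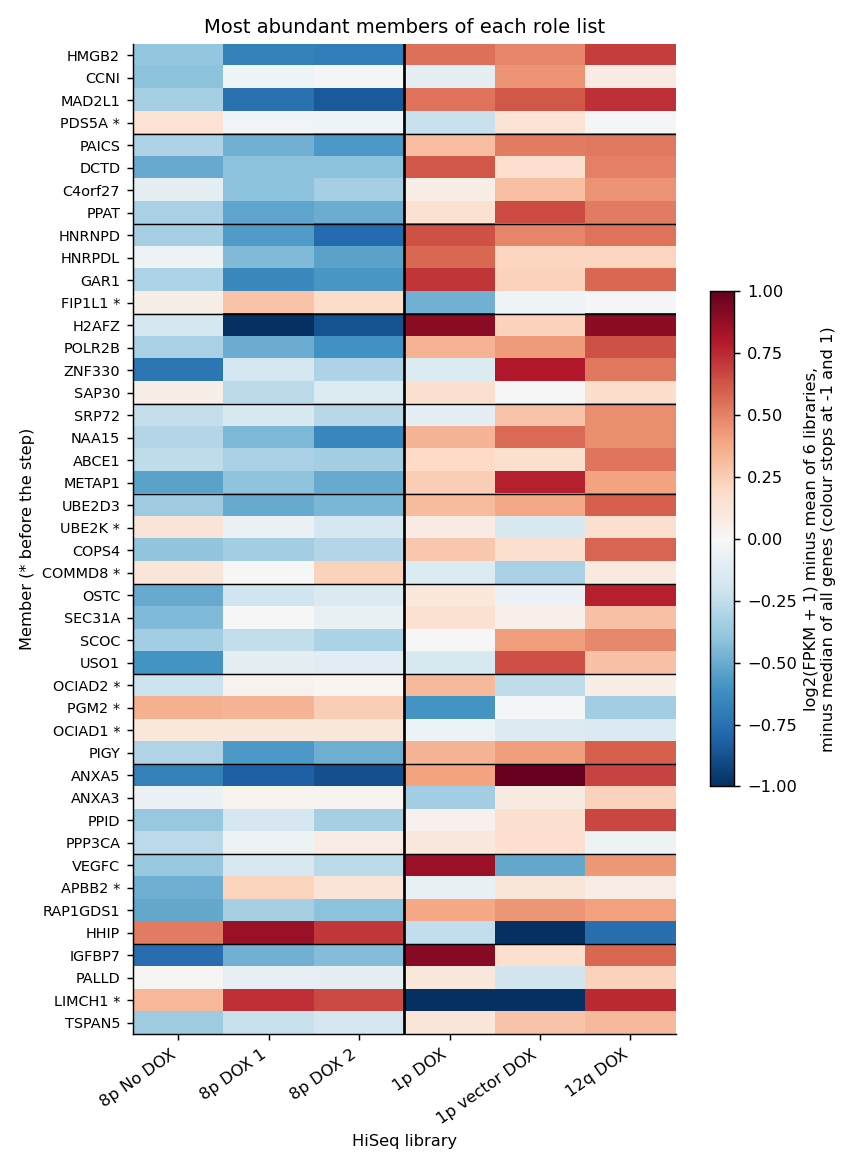
The 4 members of each role list with the highest mean FPKM (rows, separated by lines in the order of the list plot) in the 6 HiSeq libraries (columns), coloured by log2(FPKM + 1) minus the mean over the libraries and minus the median of all genes, from blue (-1 or lower) to red (1 or higher); asterisks mark members before the step. Most rows beyond the step are blue in the 3 8p libraries and red in the others, and HHIP is reversed.

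The members were compared with and without DOX in the 8p libraries, a contrast the choice of members had not used. No 8p vector library was part of it, so DOX and XIST cannot be told apart, and differences between the 8p clones enter it too. With DOX, 54 of the 151 members changed (17 higher and 37 lower, limma on log2(FPKM + 1) across all 7662 genes, adjusted p under 0.05), against 42.1% of all genes. Higher and lower calls made up 13.7% and 28.4% of all genes. The direction depended on the scaling, since with each library shifted to an equal median gene 26 members were higher and 23 lower, and 20.7% of all genes were higher and 20.7% lower. Beyond the step 45 of 123 members changed, and before it 9 of 28. The median unadjusted log2 difference of the members was -0.088, next to -0.085 for all genes, and 13 members, 2 before and 11 beyond the step, had their FPKM reduced by 30 to 60%, a range that held 10.7% of all genes. A single No DOX library was available and was assumed to vary like the DOX pair, which leaves 1 residual degree of freedom, and in simulated data this fit gave more false calls than the nominal level. The count of members changed was lower than 54 when genes down to 1 FPKM entered the fit, where the share of all genes called is not given here.

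The largest changes with DOX ran in both directions. SEC24D rose from 9.29 FPKM without DOX to 21.7 and 18.6 FPKM with DOX (log2 difference 1.04, SE 0.11, adjusted p = 0.00058). FAM114A1 rose from 10.97 FPKM without DOX to 20.7 and 19.1 FPKM with DOX (log2 difference 0.80, SE 0.09, adjusted p = 0.00083), and FLJ20021 from 4.80 FPKM without DOX to 7.66 and 9.63 FPKM with DOX (log2 difference 0.73, SE 0.13, adjusted p = 0.0036). SEC24D and FLJ20021 are exceptions beyond the step, and FAM114A1 lies before it.

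The other 7 of the 10 largest changes with DOX were falls. MLF1IP, listed in the NextSeq table as CENPU, a centromere protein, fell from 11.6 FPKM without DOX to 5.89 and 5.39 FPKM with DOX (log2 difference -0.92, SE 0.09, adjusted p = 0.00053). H2AFZ fell from 158 FPKM without DOX to 83.5 and 89.02 FPKM with DOX (log2 difference -0.87, SE 0.09, adjusted p = 0.00056), and PLK4 from 5.07 FPKM without DOX to 2.88 and 2.37 FPKM with DOX (log2 difference -0.75, SE 0.10, adjusted p = 0.0015). DANCR, before the step, fell from 128 FPKM without DOX to 76.1 and 76.9 FPKM with DOX (log2 difference -0.73, SE 0.08, adjusted p = 0.00081). For MAD2L1, the difference was of the same kind, from 23.3 FPKM without DOX to 16.2 and 14.7 FPKM with DOX (log2 difference -0.57, SE 0.10, adjusted p = 0.0031). EXOSC9, a subunit of the RNA exosome, fell from 25.1 FPKM without DOX to 15.1 and 14.5 FPKM with DOX (log2 difference -0.72, SE 0.09, adjusted p = 0.00094), and LSM6 from 19.3 FPKM without DOX to 13.7 and 11.6 FPKM with DOX (log2 difference -0.58, SE 0.11, adjusted p = 0.0051). For H2AFZ, PLK4, LSM6 and MAD2L1 the low 8p mean given above therefore includes lower values in the DOX libraries. In each case the DOX pair lay on the same side of the No DOX value.

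The NextSeq libraries, which the choice of members had not used, allowed the 12q and the 1p integrations to be compared. The study made several clones at 12q, and the labels do not say whether the libraries of an integration share a clone. Of the members, 142 were matched by symbol and 5 by a synonym, and 145 reached a mean of 5 FPKM (RELL1 and HHIP did not, and LOC100499177, HSP90AB3P, PIGY and ODZ3 were not matched). Between 12q and 1p, with DOX as a second term, 53 of 145 members differed (28 higher and 25 lower in 12q, limma on log2(FPKM + 1), adjusted p under 0.05), against 37.0% of all 8082 genes (19.0% higher and 18.1% lower). The stretches were alike, with 43 of 118 members beyond the step and 10 of 27 before it. The median log2 difference minus that of all genes was -0.00066 beyond the step and -0.028 before it, next to the median of -0.75 beyond the step between the 8p and the other HiSeq libraries. The count rests on few libraries. It fell when any 1 of them was left out, most when it was a 1p library, in fits that had no term for DOX. Each such fit leaves a single library of a clone, and the share of all genes called in it is not given here.

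The NextSeq levels of 4 members that were low in 8p, chosen after their values were seen, are given beside this. ANXA5 was at 286 and 313 FPKM in the 1p libraries and 289 and 312 FPKM in the 12q libraries, with a log2 difference of 0.01 (SE 0.06), and HNRNPD at 291 and 289 FPKM in the 1p libraries and 276 and 295 FPKM in the 12q libraries, with -0.02 (SE 0.06). MND1 was at 18.8 and 19.5 FPKM in the 1p libraries and 21.04 and 23.6 FPKM in the 12q libraries. Neither these nor PAICS, at 167 and 173 FPKM in the 1p libraries and 177 and 187 FPKM in the 12q libraries, passed the test. Of the 92 tested members beyond the step with a relative difference of -0.5 or lower, 32 (34.8%) passed it, next to 37.0% of all genes.

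The 10 largest differences between 12q and 1p were of other members. LIMCH1 was at 4.11 and 3.95 FPKM in the 1p libraries and 19.2 and 20.2 FPKM in the 12q libraries (log2 difference 2.04, SE 0.08, adjusted p = 0.00035), and CHIC2 at 12.6 and 11.6 FPKM in the 1p libraries and 24.5 and 25.9 FPKM in the 12q libraries (log2 difference 1.00, SE 0.08, adjusted p = 0.0017). HSPA4L was at 6.25 and 5.38 FPKM in the 1p libraries and 10.5 and 11.6 FPKM in the 12q libraries (log2 difference 0.82, SE 0.11, adjusted p = 0.0066). For these 3 genes the HiSeq 12q library was also above both 1p libraries. SEC24D was at 14.4 and 13.8 FPKM in the 1p libraries and 20.8 and 26.3 FPKM in the 12q libraries (log2 difference 0.69, SE 0.10, adjusted p = 0.0086), ZNF330 at 27.3 and 26.3 FPKM in the 1p libraries and 41.8 and 45.6 FPKM in the 12q libraries (log2 difference 0.69, SE 0.07, adjusted p = 0.0038), and HSD17B11, a steroid dehydrogenase of lipid droplets, at 7.70 and 7.55 FPKM in the 1p libraries and 11.6 and 13.95 FPKM in the 12q libraries (log2 difference 0.67, SE 0.10, adjusted p = 0.0078).

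TRIML2, listed at 0 in the 8p libraries, was at 9.12 and 9.18 FPKM in the 1p libraries and 18.1 and 18.1 FPKM in the 12q libraries (log2 difference 0.91, SE 0.07, adjusted p = 0.0017). Lower in 12q were VEGFC, at 47.1 and 43.001 FPKM in the 1p libraries and 20.8 and 19.6 FPKM in the 12q libraries (log2 difference -1.12, SE 0.06, adjusted p = 0.0011), and IGFBP7, at 126 and 135 FPKM in the 1p libraries and 65.5 and 68.6 FPKM in the 12q libraries (log2 difference -0.95, SE 0.06, adjusted p = 0.0013). AGPAT9, an enzyme of glycerolipid synthesis, was at 48.8 and 55.6 FPKM in the 1p libraries and 28.7 and 28.2 FPKM in the 12q libraries (log2 difference -0.85, SE 0.08, adjusted p = 0.0025). For VEGFC, IGFBP7 and TRIML2 the HiSeq difference between the 12q library and the mean of both 1p libraries, relative to all genes, was of the opposite sign, at 0.25, 0.03 and -0.70. That mean includes the 1p vector library, which has no NextSeq counterpart. Against the HiSeq 1p library with XIST alone, FPKM in 12q went the same way as in NextSeq. It was lower for VEGFC (16.2 against 20.1 FPKM) and IGFBP7 (53.5 against 61.7 FPKM) and higher for TRIML2. Of the 53 members that differed, 41 had the same sign in HiSeq by the measure with both 1p libraries. The share of all genes called in NextSeq that kept their sign is not given here. Across the 145 members Pearson's r was 0.54 and Spearman's rho 0.37, given as a description over genes, which are not independent replicates and share their libraries.

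**Figure D5:**
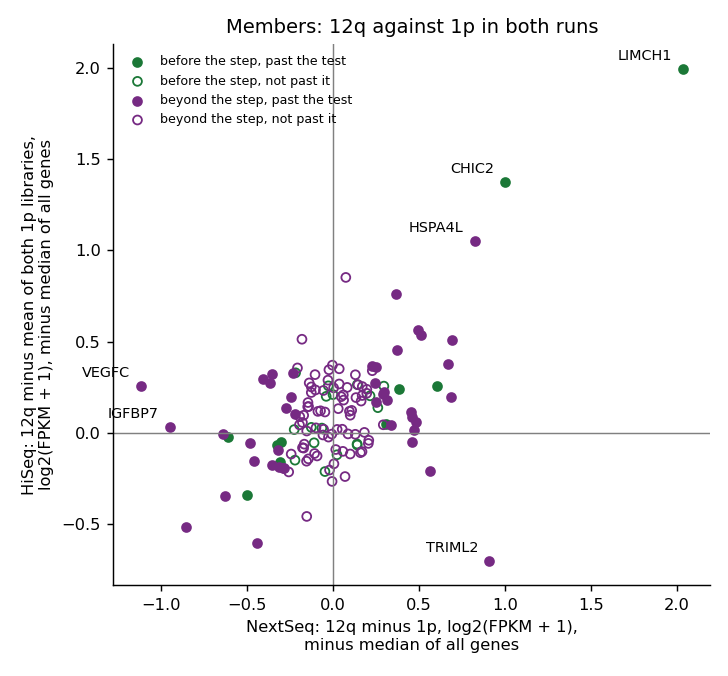
Each point is 1 of 145 members, placed by the difference between 12q and 1p in the NextSeq table (horizontal axis) and in the HiSeq table (vertical axis), both on log2(FPKM + 1) and relative to the median of all genes; filled points passed the NextSeq test. LIMCH1, CHIC2 and HSPA4L are higher in 12q in both tables, and members on either side of the step scatter around 0.

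No member passed the test of DOX in the 1p and 12q clones. This holds for all 145 members across the 4 NextSeq libraries (limma, lowest adjusted p = 0.57), 2 members had an unadjusted p under 0.05, and 1 gene of 8082 (0.0124%) was called in all. The median log2 difference of the members was 0.042, next to -0.010 for all genes. The fit had 1 residual degree of freedom, and the log2 differences of the members with DOX lay between -0.14 and 0.23. Relative to all genes, the median change of the members with DOX was 0.015 and -0.011 for the DOX libraries of 8p, 0.022 in 1p and 0.082 in 12q.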

How the data were processed

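The authors aligned the RNA-seq reads to hg18 with TopHat (Bowtie) and deposited FPKM values per gene estimated with Cufflinks, in 1 table of 6 HiSeq libraries (50 bp paired-end reads) and 1 of 4 NextSeq libraries (76 bp). Versions, the annotation and the depth are not given in the sources used here, and the 6 ChIP-seq samples are not analysed here. Libraries were strand-specific and polyA-selected. The 2 tables were tested separately.

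Lines with a symbol listed more than once, symbols turned into dates and lines without a value were left out, which left 22892 HiSeq and 25606 NextSeq genes. Differences of group means were computed on log2(FPKM + 1) for genes with a mean of at least 5 FPKM in Python 3.11.15 with pandas 2.3.3. The tests were limma 3.58.1 in R 4.3.3 (lmFit, eBayes with trend, Benjamini-Hochberg over all genes of the table), with the 3 8p libraries for DOX and with clone and DOX as terms in the 4 NextSeq libraries. The fits were tested on simulated data, where the share of false calls in the 8p fit exceeded the nominal level. NextSeq members were matched by symbol or by a synonym of the RefSeq gene table, and promoters were taken from RefSeq.

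The members, role lists and tests were chosen with earlier results of these data known. Members named with values were the 10 lowest and 10 highest differences, the 5 on either side of the step, the 4 with the highest mean FPKM in each role list, the 10 largest of those called in each test and those next to the thresholds, with promoters for the 2 nearest to the median and the 2 highest beyond the step; YTHDC1, GALNT7, HSP90AB3P and the genes of the gap were named after their values were seen. Alternatives were the pseudocount, the filter on low FPKM, the scaling, the trend term and leaving out each library.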

Additional observations from a re-analysis of the deposited data

How the results depend on the processing

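Values are unadjusted medians of log2 differences between the 8p and the other HiSeq libraries unless stated. The direction of the members beyond the step was kept under each alternative, with the smallest medians when all genes were kept without a filter on low values. These were -0.012 over all members, -0.052 beyond the step and 0 before it. Of the 645 members without a filter, 169 were lower in every 8p library, against 5.34% of all genes, and 111 were lower by 0.5 or more. The step was then at CCNI (78188198), far from its place with the filter. With a mean of at least 1 FPKM, 136 of 265 members were lower in every 8p library, against 5.38% of all genes, and 105 were lower by 0.5 or more. The step was then at SRD5A3 (55907144) and the median before it 0.30. With at least 10 FPKM, 38 of 80 members were lower in every 8p library, against 3.58% of all genes, and 35 were lower by 0.5 or more. The share of all genes lower by 0.5 or more was not computed under these filters. With each library shifted to an equal median gene the medians were -0.66, -0.74 beyond and 0.20 before the step, and relative to the median of all genes -0.68, -0.75 and 0.18 (added after the data were seen, as was leaving out TRIML2). Leaving out 1 library at a time gave medians from -0.53 (without 1p DOX) to -0.35 (without 12q DOX), beyond the step from -0.59 to -0.42, and the step at 55956846 or, without 12q DOX, at 56414572.

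For DOX in 8p, 34 members were called with genes from 1 FPKM in the fit, and the median, -0.088 with libraries as deposited, was -0.00063 with shifted libraries and between -0.12 and -0.053 without 1 of the DOX libraries. Between the NextSeq clones, 5 and 3 members were called without the 1p No DOX and the 1p DOX library, and the median, -0.0018 with all libraries, turned to 0.024 without the 12q No DOX library; leaving out 1 library gave 3 to 42 calls and medians from -0.037 to 0.024. For DOX in NextSeq the median was 0.079 with shifted libraries, and leaving out 1 library, given as a value without a test, moved it between 0.018 and 0.065; a fit without the term for clone was not run. The causes of these changes were not tested. For the fits with genes from 1 FPKM or without 1 library, the share of all genes called is not given here. Their counts of members called therefore do not show whether the members differed from other genes. No pairing by replicate number was possible because fewer than 2 replicate numbers were common to the groups. In the NextSeq fit the term for clone set DOX against No DOX within each integration.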
